A study of Homo sapiens with 6 samples.

Results

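Complement is a cascade of plasma and membrane proteins that marks cells and microbes for removal. In the classical pathway it starts when the proteases C1r and C1s are activated. In the alternative pathway it starts when C3 turns over spontaneously and pairs with factor B. These routes and the lectin pathway converge on the cleavage of C3 and on the membrane attack complex. The 9 genes described here are C3, CFB, C1R and C1S, which encode components, SERPING1 and VTN, which encode soluble regulators, and CD46, CD55 and CD59, which encode regulators held in the cell membrane. They were chosen by name from the 60612 gene rows of the deposited table, each as the row with the highest mean FPKM of its symbol, and 8 of the 9 were among the 13748 genes tested. SERPING1 lay below the filter of 0.5 FPKM in at least 3 libraries (FPKM is a level scaled to transcript length and library size). All 9 carry the KEGG term for complement and coagulation cascades in that table. Liver cells make most circulating complement, and many other cells transcribe C3, CFB, C1R and C1S at lower levels, where interferon and inflammatory cytokines are known inducers.

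The cells are labelled Hep3B, a hepatocellular carcinoma line. In 3 libraries, called siEIF4G2, EIF4G2, a translation initiation factor, was silenced with small interfering RNA at 50 nM. The other 3 libraries received 50 nM of a control small interfering RNA and are called siNC. Both groups are the same line with no other genotype or agent in the labels, only 1 small interfering RNA label stands for the silencing, and the labels do not say whether replicates came from different cultures. The p-values may then rest on technical spread alone. The labels give liver as the tissue, while the extraction protocol speaks of adipose material.

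Total counts ran from 63351653 to 72863628 per library. EIF4G2 itself read 178, 180 and 199.8 CPM in siEIF4G2 replicates 1, 2 and 3 and 1103, 913 and 998 CPM in siNC replicates 1, 2 and 3, where CPM is a count scaled by the library total and TMM. Of 10 hepatocyte markers, 7 had 0 counts in every library, ALB, AFP and APOA1 among them, and TF, SERPINA1 and AHSG had at most 8 in any library, so 0 of the 10 passed the filter. A count of 0 allows 3 counts, or 0.0403 to 0.0466 CPM, for counting error only. These marker values do not bear out the liver origin that the label gives, and the identity of the line was not tested. The keratins KRT8 and KRT18 were high (175.9 and 175.6 FPKM on average in siEIF4G2, 190.4 and 195 in siNC), whereas the epithelial genes EPCAM and CDH1 never exceeded 4 and 31 counts.

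Of the 8 tested members, 6 fell (VTN, CFB, C1S, C1R, C3 and CD55), 0 rose, and CD59 and CD46 did not pass (edgeR quasi-likelihood test, Benjamini-Hochberg adjusted p of 0.05 over all 13748 genes). Over all tested genes 17.6% fell and 15.9% rose by the same rule. The edgeR fold change of every tested member was negative, and 0 members rose at an unadjusted p of 0.05 or with DESeq2. The median log2 fold change of the 8 was -0.42, beside 0.0075 over all tested genes. The members were chosen with earlier results of these data known, so these shares and medians describe the set and do not test it. In 6 of the 8 each siEIF4G2 value lay below each siNC value, a pattern seen in 25.6% of tested genes. An exact two-sided permutation test of a single gene cannot give less than p = 0.1 with 3 libraries against 3, and it gave that value for each of these 6 members.

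**Figure D1:**
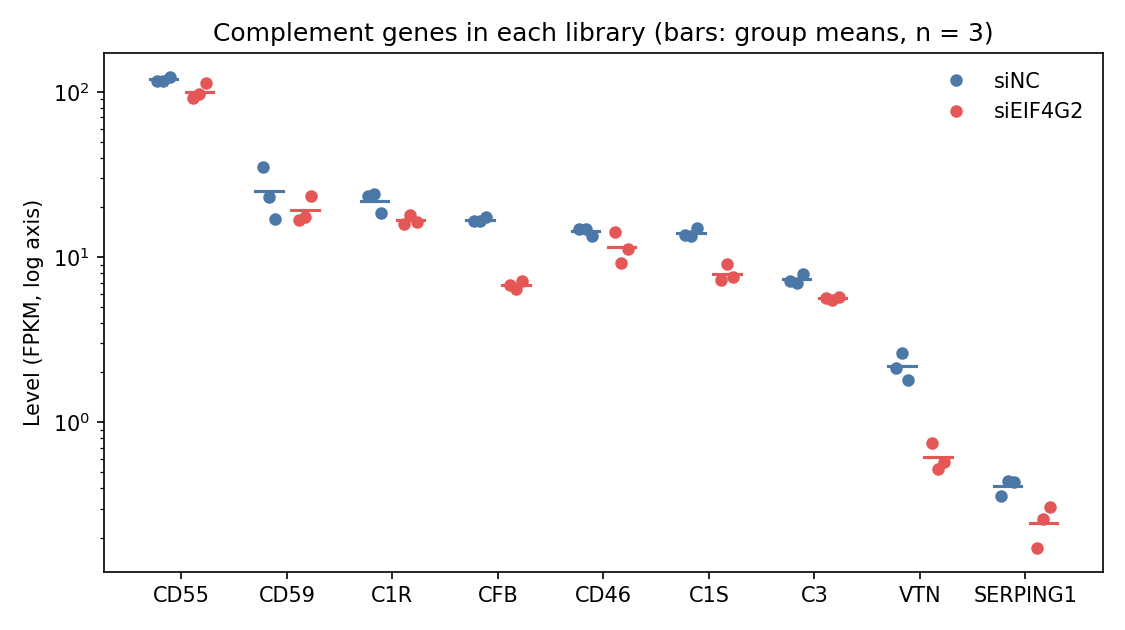
Level of each of the 9 complement genes in FPKM (log axis), with 1 point per library and a bar at the mean of each group (n = 3, siNC in blue, siEIF4G2 in red). CFB, C1S and VTN are well separated between groups, and the CD59 points of both groups mix.

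By level per length in siNC, CD55 stood first at 119 ± 4.17 FPKM (mean ± SD, n = 3). CD59 followed at 25.1 ± 9.09 FPKM and C1R at 22.0 ± 3.10 FPKM, with overlapping ranges. CFB came next at 16.8 ± 0.517 FPKM, and then CD46 at 14.4 ± 0.847 and C1S at 13.98 ± 0.932 FPKM, whose ranges also overlapped. C3 read 7.33 ± 0.45 FPKM, VTN 2.19 ± 0.415 FPKM and SERPING1 0.411 ± 0.0461 FPKM, each below the whole range of the gene before it. Thus the membrane regulator CD55 had the highest transcript level of the set and the 2 soluble regulators the lowest. In siEIF4G2 the order was the same except that CFB, at 6.78 ± 0.358 FPKM, dropped from the fourth place to the sixth, below CD46 and C1S.

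RefSeq promoter windows were at hand for 6 members, and not for C3, C1S and SERPING1. Those of the 4 of these 6 that fell are given here, CFB and VTN, which changed most, and C1R and CD55, which changed less. Each is the 250 bases before the first listed transcript start, 5′ to 3′ on the gene's strand, on build GRCh38.p14. Capitals mark matches, on either strand, to the STAT site TTCNNNGAA, the interferon response core, the kappaB site or the C/EBP site TTGCNNAA.
CFB: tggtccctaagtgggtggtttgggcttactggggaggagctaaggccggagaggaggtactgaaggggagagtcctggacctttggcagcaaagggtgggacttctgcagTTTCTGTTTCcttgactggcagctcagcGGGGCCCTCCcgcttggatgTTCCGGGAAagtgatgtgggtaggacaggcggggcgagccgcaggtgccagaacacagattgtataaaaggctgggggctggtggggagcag
VTN: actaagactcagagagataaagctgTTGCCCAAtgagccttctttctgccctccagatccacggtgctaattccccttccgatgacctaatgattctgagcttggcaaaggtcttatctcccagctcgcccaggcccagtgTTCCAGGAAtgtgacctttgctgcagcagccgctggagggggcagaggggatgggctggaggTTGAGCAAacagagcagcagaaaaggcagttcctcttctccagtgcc
C1R: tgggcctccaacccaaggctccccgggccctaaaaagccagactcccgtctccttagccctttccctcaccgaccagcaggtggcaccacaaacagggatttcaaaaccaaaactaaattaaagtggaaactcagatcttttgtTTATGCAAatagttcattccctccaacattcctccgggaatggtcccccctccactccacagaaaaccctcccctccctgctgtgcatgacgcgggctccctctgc
CD55: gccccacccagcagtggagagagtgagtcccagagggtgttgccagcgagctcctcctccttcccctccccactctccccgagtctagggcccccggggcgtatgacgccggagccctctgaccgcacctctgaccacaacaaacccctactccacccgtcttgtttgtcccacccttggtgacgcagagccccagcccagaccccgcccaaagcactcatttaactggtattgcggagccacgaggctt

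The CFB window (chr6:31945845-31946094, plus strand) held 3 matches. An interferon response core began 140 bases before the start, a kappaB match 112 bases before it and a STAT site, TTCCGGGAA, 92 bases before it. The VTN window (chr17:28370308-28370557, minus strand) held a STAT site, TTCCAGGAA, 109 bases before the start and C/EBP matches at 225 and 47 bases. The C1R window (chr12:7092446-7092695, minus strand) held a single C/EBP match, and the CD55 window (chr1:207321428-207321677, plus strand) held none. A second C1R window, not printed, held a STAT and a C/EBP match, both CD46 windows held none, and 3 of the CD59 windows held at least 1 match. The first listed window of CD59, which did not pass, held a STAT site 128 bases before the start and a kappaB match 236 bases before it. Among 35116 RefSeq windows of that length, 6.57% hold the STAT site, 3.02% the interferon response core, 12.3% the kappaB site and 9.05% the C/EBP site. The matches are descriptions of letters, and no binding was measured. Whether they go with the size of a change was not tested.

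C3 and CFB encode the central component of the cascade and the protease subunit of the alternative pathway convertase. CFB (chr6:31945650-31952084, plus strand) read 37.8, 36.7 and 39.7 CPM in siEIF4G2 replicates 1, 2 and 3 and 94.2, 93.9 and 98.8 CPM in siNC replicates 1, 2 and 3. The spread within each group was small beside the gap, and CFB fell 2.51-fold (log2 fold change -1.33, SE 0.052, edgeR adjusted p = 0.000207). C3 (chr19:6677704-6730562, minus strand) read 54.8, 55.4 and 56.0 CPM in siEIF4G2 against 71.9, 70.0 and 78.3 CPM in siNC. Its groups did not overlap either, and the fall was 1.32-fold (log2 fold change -0.41, SE 0.057, edgeR adjusted p = 0.00362). The ratio of CFB to C3 in FPKM was 1.21, 1.16 and 1.24 in siEIF4G2 and 2.30, 2.35 and 2.21 in siNC (exact two-sided permutation p = 0.1, and 0.1 after adjustment over 2 ratios), with no overlap between the groups. CFB overlaps C2, its neighbour and paralog, by 23 bases. C2 read 0, 0.578 and 0.249 CPM in siEIF4G2 and 1.12, 0.971 and 1.48 CPM in siNC. It was outside the main test and did not pass with no filter on low values (edgeR adjusted p = 0.260). C2 had at most 104 counts in a library. The locus AL645922, which spans nearly all of CFB, had at most 52. C3 overlaps GPR108 by 649 bases on the same strand, and GPR108 also fell (47.6 ± 1.21 against 67.2 ± 3.65 CPM, n = 3, edgeR adjusted p = 0.00199). Summed with the genes they overlap, CFB and C3 gave a log2 fold change of -1.33 and -0.44, and GPR108 holds much of the C3 sum.

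C1R and C1S encode the paired serine proteases that join C1q in the first component of the classical pathway, and they lie 9181 bases apart on chromosome 12. C1S (chr12:6988259-7071032, plus strand) read 54.9, 70.4 and 57.8 CPM in siEIF4G2 and 106, 104 and 117 CPM in siNC. Every siEIF4G2 library was below every siNC library, and C1S fell 1.79-fold (log2 fold change -0.84, SE 0.11, edgeR adjusted p = 0.00264). C1R (chr12:7080214-7092493, minus strand) read 108, 125 and 111 CPM in siEIF4G2 and 166, 168 and 129 CPM in siNC. The lowest siNC value, replicate 3, lay just above the highest siEIF4G2 value, replicate 2, and the fall was 1.34-fold (log2 fold change -0.42, SE 0.12, edgeR adjusted p = 0.0364). The call of C1R did not hold without siEIF4G2 replicate 1 or 3 or without siNC replicate 1 or 2 (edgeR adjusted p = 0.1004 to 0.106), nor with limma or with no filter. The ratio of C1S to C1R in FPKM was 0.455, 0.505 and 0.467 in siEIF4G2 and 0.573, 0.558 and 0.818 in siNC (exact two-sided permutation p = 0.1, and 0.1 adjusted over 2 ratios), so replicate 3 of siNC stood apart from its group in this ratio. C1S overlaps LPCAT3, a lipid acyltransferase gene on the opposite strand that also fell (log2 fold change -0.28, edgeR adjusted p = 0.0102), and the sum of both, much of it from LPCAT3, had a log2 fold change of -0.56.

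SERPING1 (chr11:57597387-57614848, plus strand) encodes the C1 inhibitor, which inactivates C1r and C1s. Its counts were low, 53, 72 and 81 in siEIF4G2 and 103, 123 and 128 in siNC, or 0.712, 1.09 and 1.26 CPM against 1.503, 1.84 and 1.82 CPM. The 3 siEIF4G2 values were the lowest, but the gene was outside the main test. With no filter on low values its log2 fold change was -0.74 and it did not pass (edgeR adjusted p = 0.123).

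The membrane regulators keep complement off the cell's own surface: CD55 speeds the decay of the C3 convertases, CD46 is a cofactor for the cleavage of C3b and C4b, and CD59 blocks assembly of the membrane attack complex. CD55 had the smallest log2 fold change of the tested members, and CD46 and CD59 did not pass. CD55 (chr1:207321532-207386804, plus strand) read 617, 670.1 and 764 CPM in siEIF4G2 and 812, 807 and 856 CPM in siNC. The groups did not overlap, and the fall was 1.21-fold (log2 fold change -0.27, SE 0.082, edgeR adjusted p = 0.0481), close to the threshold. The call of CD55 held without siEIF4G2 replicate 3 and was lost without each of the other 5 libraries (edgeR adjusted p = 0.0962 to 0.131), with limma, with no filter, with library totals alone and with summed rows of a symbol.

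CD46 (chr1:207752054-207795513, plus strand) lies 365249 bases from CD55. It read 145, 96.9 and 114 CPM in siEIF4G2 and 156, 156 and 140.4 CPM in siNC, and siEIF4G2 replicate 1 overlapped the siNC range. Its log2 fold change was -0.35 (95% interval -0.71 to 0.010, edgeR adjusted p = 0.119). Without siEIF4G2 replicate 1 it was -0.51 and passed (edgeR adjusted p = 0.0196). CD59 (chr11:33703010-33736425, minus strand) read 208, 223 and 289 CPM in siEIF4G2 and 447, 295 and 217 CPM in siNC. The siNC libraries differed 2.06-fold among themselves, the widest spread of the 9 genes in siNC, and the groups overlapped. The log2 fold change of CD59 was -0.42 (95% interval -1.08 to 0.25, edgeR adjusted p = 0.292), and it was -0.095 without siNC replicate 1. AL049629, a locus on the same strand that overlaps 19447 bases of CD59, read 8.99 ± 4.88 against 8.01 ± 1.89 CPM (n = 3, edgeR adjusted p = 0.775). The interval leaves room both for a fall like that of C1S and for a small rise.

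**Figure D2:**
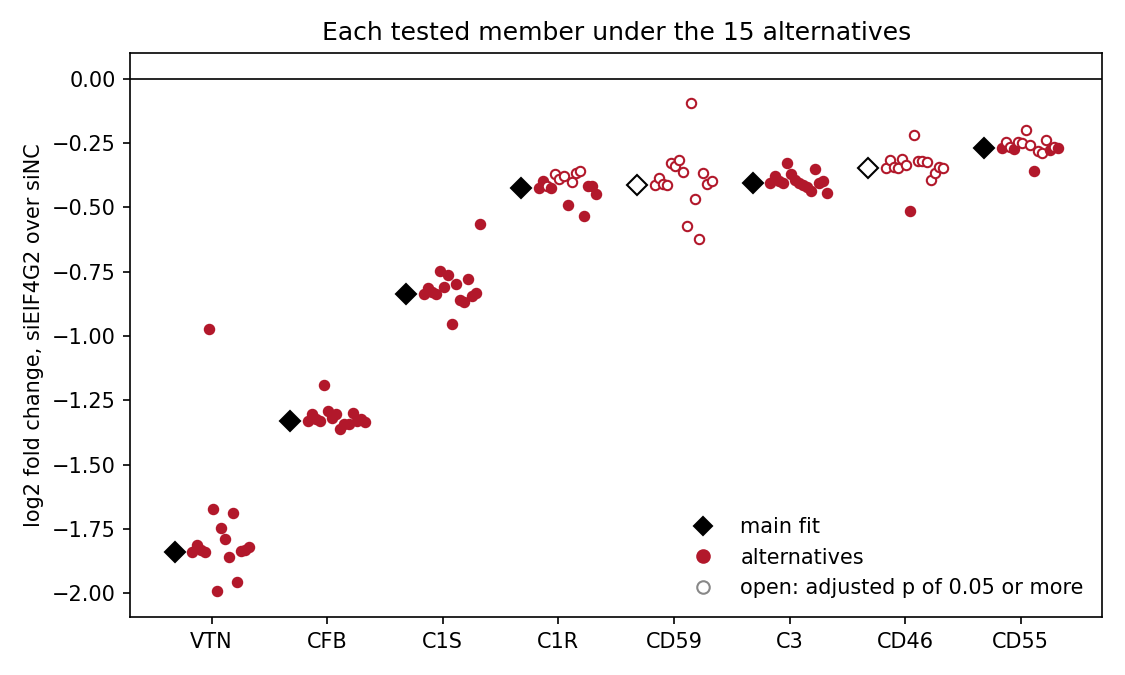
The log2 fold change of each tested member (siEIF4G2 over siNC) in the main edgeR fit (diamonds) and under 15 alternatives (circles), filled where the adjusted p was under 0.05. All circles of VTN, CFB, C1S and C3 are filled, whereas C1R passed in 8, CD55 in 5, CD46 in 1 and CD59 in 0 of the 15, which include the sums over overlapping genes.

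VTN encodes vitronectin, a plasma and matrix protein that binds integrins and restrains the terminal complement complex. VTN (chr17:28367284-28370307, minus strand) read 1.69, 1.22 and 1.31 CPM in siEIF4G2 and 4.90, 6.05 and 4.16 CPM in siNC, from 80 to 405 counts. The groups did not overlap, and the fall was 3.585-fold (log2 fold change -1.84, SE 0.21, edgeR adjusted p = 0.00185). This was the largest change of the 9 genes and came from a low level. The log2 fold change was -0.97 on the log2(FPKM + 1) scale, which understates the change of low genes.

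The value of VTN is uncertain because the whole of its 3024 bases lies inside SARM1, a gene on the opposite strand, and inside the locus AC002094 (ENSG00000258924), also on the opposite strand. The use of strand in counting is not given in the sources used here. SARM1, which encodes an NAD-cleaving enzyme, read 2.90, 3.03 and 6.08 CPM in siEIF4G2 and 11.1, 14.9 and 10.6 CPM in siNC, so it fell as well (log2 fold change -1.61, SE 0.33, edgeR adjusted p = 0.0131). AC002094 had 0 counts in all siEIF4G2 libraries and in siNC replicate 3, but 139 and 237 counts in siNC replicates 1 and 2. Summed with these, VTN had a log2 fold change of -1.82 (edgeR adjusted p = 0.00513), a sum in which SARM1 holds most counts. Which of the overlapping genes the reads came from was not tested.

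**Figure D3:**
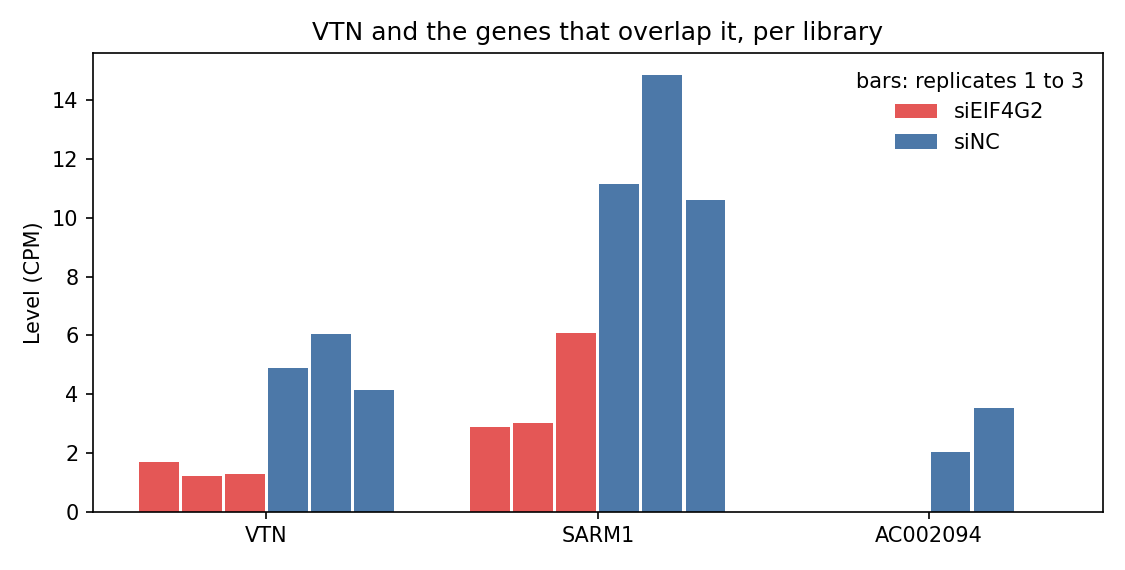
Level in CPM of VTN and of the overlapping genes SARM1 and AC002094 in each library, with bars for replicates 1 to 3 of siEIF4G2 (red) and siNC (blue). VTN and SARM1 are lower in all siEIF4G2 libraries, and AC002094 appears in siNC replicates 1 and 2 alone.

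Most other complement genes were not transcribed at a testable level. Of 52 further genes of the system, 26 had 0 counts in every library, 42 were not tested and 10 were. Of the 10, C1RL fell, C1QBP rose and 8 did not pass, with a median log2 fold change of -0.21, where 17.6% of all tested genes fell and 15.9% rose. C1RL, a C1r-like protease gene that overlaps C1R by 2907 bases on the same strand, read 23.5, 23.0 and 22.6 CPM in siEIF4G2 and 33.0, 36.4 and 33.3 CPM in siNC (log2 fold change -0.57, SE 0.064, edgeR adjusted p = 0.00174). C1QBP, which encodes a mitochondrial protein named as a binder of C1q, read 396, 302 and 372 CPM in siEIF4G2 and 234, 269 and 234 CPM in siNC (log2 fold change 0.54, edgeR adjusted p = 0.0147). Its call did not hold without siNC replicate 1 or 3 (edgeR adjusted p = 0.0527 and 0.0502).

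Several steps of the cascade had no detected transcript. C1QA, C1QB and C1QC, the recognition subunit of the first component, had 0 counts throughout, as had C6, C7, C8A, C8B and C9 of the membrane attack complex. Those were 5 of the 7 terminal pathway genes on the list. C8G, the 1 terminal gene tested, had at most 65 counts and did not pass (log2 fold change -0.17, edgeR adjusted p = 0.678). C4A and C4B, near-identical genes that may share reads, read 7.44 and 8.81 CPM on average in siEIF4G2 and 9.14 and 10.1 CPM in siNC (edgeR adjusted p = 0.0546 and 0.177). CFD, the protease that cleaves factor B, read 6.23 ± 0.650 against 7.66 ± 0.611 CPM (n = 3, edgeR adjusted p = 0.108). The soluble regulators CLU and C4BPB were abundant (968 and 277 CPM in siEIF4G2, 939 and 259.8 CPM in siNC) and did not pass (edgeR adjusted p = 0.724 and 0.204). C4BPB encodes the short chain of the C4b-binding protein, and C4BPA, which encodes its main chain, had at most 60 counts. CALR, the chaperone calreticulin, did not pass either (log2 fold change -0.25, edgeR adjusted p = 0.0676). Of 70 other symbols that carry the KEGG term, which also covers coagulation and was counted after seeing the data, 18 were tested, 8 fell and 0 rose, beside 17.6% and 15.9% of all tested genes, with 0 rises at an unadjusted p of 0.05 and 0 with DESeq2.

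**Figure D4:**
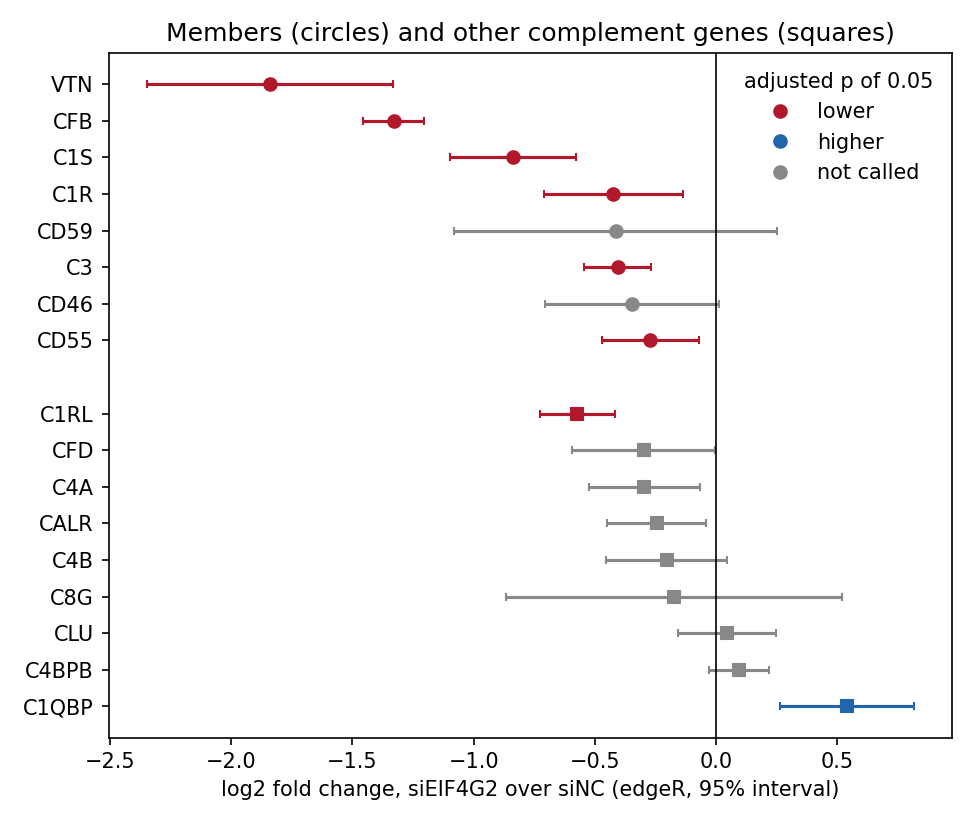
The log2 fold change (siEIF4G2 over siNC, edgeR) with its 95% interval for the 8 tested members (circles) and 9 of the 10 other tested complement genes (squares; 1 that was not called is not shown), coloured by call at an adjusted p of 0.05. VTN and CFB lie farthest to the left, and C1QBP is the gene called higher.

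Transcription factors known to act on complement genes were read in the same libraries. Of 11 on the list, 8 were tested, 4 fell (IRF1, CEBPA and CEBPB among them), 0 rose and 4 did not pass, with 2 rises at an unadjusted p of 0.05 and 0 with DESeq2. Over all tested genes 17.6% fell and 15.9% rose. This list too was chosen with earlier results of these data known, so its counts are no test of the set. IRF1, an interferon-induced regulator, had a log2 fold change of -0.42 (edgeR adjusted p = 0.0105). For the C/EBP factors CEBPA and CEBPB the log2 fold change was -0.50 and -0.35 (edgeR adjusted p = 0.0234 and 0.0219). For STAT3, CEBPD, RELA and NFKB1 it was 0.12, 0.26, 0.071 and -0.13 and did not pass (edgeR adjusted p = 0.0707 to 0.566). The liver factor HNF4A had at most 19 counts, and NR1H4 had 0.

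Some genes used as markers of other cell types that make complement also moved with the groups. The labels give the same line for all libraries and name no mixture of cells, and whether any was present was not tested. In bulk RNA, fewer cells of a type and less RNA per cell cannot be told apart. Over all tested genes 17.6% fell and 15.9% rose in the main fit. The summed level of 7 fibroblast markers was 99.4 to 101 FPKM in siEIF4G2 and 77.0 to 85.3 FPKM in siNC. COL3A1, DCN and LUM were higher and COL1A1 and PDGFRB lower (edgeR adjusted p = 0.00302 to 0.0417). The summed level of 8 macrophage and leukocyte markers was 8.47 to 10.4 FPKM in siEIF4G2 and 13.3 to 15.6 FPKM in siNC, nearly all of it CD68 and CSF1R. Both fell (edgeR adjusted p = 0.0111 and 0.00595), while PTPRC, CD163 and TYROBP had 0 counts in every library. The 6 endothelial markers summed to 0.471 to 0.561 FPKM in siEIF4G2 and 1.36 to 1.45 FPKM in siNC, led by CDH5. CDH5 fell (edgeR adjusted p = 0.000756), and VWF and PECAM1 had at most 57 and 50 counts. The 5 epithelial markers summed to 339 to 367 FPKM in siEIF4G2 and 382 to 389 FPKM in siNC. Among them KRT18 fell (log2 fold change -0.18, edgeR adjusted p = 0.0190) and KRT8 did not pass (log2 fold change -0.14, edgeR adjusted p = 0.126). The part of these markers in the complement differences was not tested.

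Among 10214 other tested genes with at least 2 FPKM, the transcript whose log2(FPKM + 1) profile over the 6 libraries was most like that of CFB was IFIT3, an interferon-induced gene (Pearson r = 0.9998), followed by SEC24A (r = 0.9996). For C3 they were KCTD9 and SEMA3C (r = 0.996 and 0.995), for VTN TNS2 and CCM2 (r = 0.999 and 0.998), and for C1R SHFL and SLC4A11 (r = 0.991 and 0.990). For C1S they were AP002478 and RTRAF (r = 0.998 and 0.997), for CD55 RNASE4 and SCFD1 (r = 0.993 and 0.988), for CD46 REXO2 and YLPM1 (r = 0.992 and 0.987), and for CD59 SEPTIN2 and KLC2 (r = 0.985 and 0.968). Between members, r was highest for C3 with CFB (0.9747) and lowest for C3 with CD59 (0.315). All these values come from 6 libraries that share the group difference, so they are descriptions without a test.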

How the data were processed

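Poly(A) RNA from 6 libraries was sequenced in pairs of reads, per the labels' protocols. HISAT2 2.0 and StringTie 1.3.0 were used per the submitters' processing notes, which give no roles. Per the file headers, the authors' deposited table holds FPKM values and counts. The deposited counts are whole numbers that are not steps of whole reads against FPKM, and were treated as rounded estimated counts. There, 0.0001 FPKM stands for a count of 0. Build, annotation and strand use: not given in the sources used here. Gene intervals overlapped GENCODE 29 on GRCh38 for 99.8% of 58394 shared identifiers, so coordinates are given as GRCh38, and promoter windows come from RefSeq, GRCh38.p14.

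A gene was tested if 3 or more libraries reached 0.5 FPKM, which left 13748 symbols. They were tested with edgeR 4.0.16 (quasi-likelihood, TMM, group only, two-sided, Benjamini-Hochberg over all genes, R 4.3.3). The SE was taken as the size of the log2 fold change divided by the root of F. Alternatives used DESeq2 1.42.0, limma 3.58.1 on log2(FPKM + 1) and log2(FPKM + 0.1), other filters, library totals, a replicate block, summed rows and each library left out. Sums over overlapping genes, the ratios and the KEGG count were added after seeing the data. The members and gene lists were chosen with earlier results of these data known. Named genes were EIF4G2, the members, other complement genes with a mean of at least 1 FPKM, tested transcription factors, genes overlapping a member and the 2 most correlated genes of each member. C2, C4BPA, C8G and the genes listed at or near 0 were looked up after seeing the data. The values of 3 genes on the lists are not reported here, though the list counts include them.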

Additional observations from a re-analysis of the deposited data

How the results depend on the processing

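Across the alternatives, 4 to 6 complement members fell and 0 rose, and every tested member kept a negative log2 fold change. VTN, CFB, C1S and C3 passed under all 15 alternatives, with edgeR, DESeq2 or limma adjusted p of at most 0.0174. One of these, the sum over overlapping genes, was chosen after seeing the data and does not bear on the call of VTN, C1S or C3 itself, since SARM1, LPCAT3 and GPR108 supply much of those sums and fell on their own. For C1R, which passed in 8 of the 15, the sum adds C1RL, which also fell on its own (edgeR adjusted p of the sum = 0.0178, beside 0.0364 in the main fit). Among other complement genes, the 1 fall became 3 with DESeq2 (C4A and CALR added), 3 with no filter on low values (C5AR1 and ITGB2 added) and 2 with limma on log2(FPKM + 0.1) (C4A added). The 1 rise, C1QBP, became 0 with the replicate block (edgeR adjusted p = 0.0573), and leaving out each library in turn gave 0 to 1 rises. The labels do not say whether libraries with the same replicate number were paired. The r of their deviations from the group means was -0.0295 to 0.0295, which cannot settle it with 3 libraries per group. The block changed no call of a member, of which 6 fell with it. Over the whole table, where 17.6% of genes fell and 15.9% rose, calls numbered 3352 to 4134 with a library left out, 3736 with the replicate block and 5343 with DESeq2. SERPING1, VTN and the genes under 1 CPM are limited by their counts.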
